A study of Mus musculus with 9 samples.

Results

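Cytosolic ribosomal protein genes were compared between leukemic progenitors and normal progenitors of mouse bone marrow. They were taken by name: every gene of the deposited table whose name begins with Rpl or Rps and a digit, together with Rplp0, Rplp1, Rplp2 and Rpsa, without the Rps6k kinases and without names that contain -ps. The rule found 85 of 16537 genes, listed as 98 of 21388 transcripts, and the transcripts of a gene were summed. Of these, 46 encode core proteins of the large subunit and 31 core proteins of the small subunit. The other 8 names are the paralogs Rpl22l1, Rpl36al, Rpl39l, Rpl3l, Rpl7l1, Rps27l and Rps4y2, and Rps19bp1, a protein that binds Rps19 and is not a ribosomal subunit. Measured values played no part in the rule.

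RNA was sequenced from sorted marrow cells of the inbred mouse strain FVB/NJ in 9 libraries, 3 per group. Median LP are leukemic progenitors with the PML-RAR genotype at the median phase of disease, early LP have the same genotype at the early phase, and HPC are wild-type hematopoietic progenitors at postnatal day 42. PML-RAR is the fusion protein of acute promyelocytic leukemia, with its promoter, the day of each phase and the markers used for sorting not given in the sources used here. The labels do not say whether libraries came from separate animals, so a p-value here reflects only how far these libraries differ among themselves. Bulk RNA cannot tell fewer cells of a type apart from less RNA per cell.

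The ribosome is the machine that reads mRNA and joins amino acids. Its small subunit reads the codons, and its large subunit forms the peptide bond and holds the tunnel through which the new chain leaves. The proteins are made in matched amounts and assembled on ribosomal RNA in the nucleolus, and their mRNAs are among the most abundant of a growing cell. Most of these mRNAs start with a run of pyrimidines, the terminal oligopyrimidine (TOP) motif, through which mTOR signaling sets their translation. Loss of 1 copy of a ribosomal protein gene causes Diamond-Blackfan anemia in people, a failure of red cell production in the bone marrow.

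The start sites of the members with the highest level per length that were matched and carry such a run in RefSeq (GRCm38.p6, the same build as mm10) are given here, since such runs are the sequence these genes are known for. Each line gives 30 bases before and 20 bases from the start site on, and capitals mark the pyrimidines from the first C of the run on. In Rps26 and Rplp2 a t, also a pyrimidine, stands just before that C. They are Rps12 (chr10:23787190-23787239, minus strand), Rpl39 (chrX:37085203-37085252, minus strand), Rps26 (chr10:128626487-128626536, minus strand), Rps18 (chr17:33955646-33955695, minus strand) and Rplp2 (chr7:141447621-141447670, plus strand).
Rps12: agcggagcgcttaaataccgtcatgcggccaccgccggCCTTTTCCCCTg
Rpl39: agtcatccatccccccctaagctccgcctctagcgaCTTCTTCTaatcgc
Rps26: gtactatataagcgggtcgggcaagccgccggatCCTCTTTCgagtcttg
Rps18: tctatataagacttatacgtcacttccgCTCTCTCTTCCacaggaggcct
Rplp2: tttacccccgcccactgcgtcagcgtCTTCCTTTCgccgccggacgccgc

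Promoters of 56 of the 77 core genes were matched by symbol, with 66 start sites in all. A run of 8 or more pyrimidines on the sense strand whose first base is C, beginning within 15 bases of the start site, was found in 40.9% of those 66 promoters, against 11.2% of all 32851 promoters of the same length. The motif CCGGAAG, searched on both strands over the whole promoter, was in 36.4% of the 66 and in 8.86% of all. TATAAA, searched likewise, was in 9.09% of the 66 and in 13.6% of all. These are matches of letters, and binding was not measured.

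The deposited estimated counts summed to between 21.9 and 25.8 M (mega) per library. Markers moved between the groups together with the ribosomal protein genes. The summed level of 6 progenitor markers (Kit, Cd34, Flt3, Ly6a, Cd48 and Sox4) was 242 to 257 CPM (counts per mega counts, scaled by the trimmed mean of M values, TMM) in median LP and 258 to 260 in early LP, against 871 to 944 in HPC. The sum of 5 promyelocyte granule genes (Mpo, Elane, Prtn3, Ctsg and Ms4a3) was 28367 to 30353 CPM in median LP and 34562 to 39550 in early LP, against 13069 to 14716 in HPC. The sum of 7 erythroid genes was 139 to 212 CPM in median LP and 12.5 to 18.9 in early LP, against 2603 to 3043 in HPC. The sums of 4 more lists were lower in both leukemic groups. The sum of 4 megakaryocyte genes was 1.13 to 1.91 CPM in median LP and 1.70 to 2.83 in early LP, against 99.0 to 127 in HPC. That of 4 dendritic cell genes was 5.27 to 5.55 CPM in median LP and 3.08 to 3.66 in early LP, against 93.1 to 127 in HPC. That of 3 basophil and mast cell genes was 5.15 to 6.20 CPM in median LP and 4.87 to 5.73 in early LP, against 161 to 200 in HPC. That of 4 B cell genes was 1.33 to 2.65 CPM in median LP and 0.410 to 0.798 in early LP, against 14.2 to 16.8 in HPC. The sum of 5 T and NK cell genes was 107 to 128 CPM in median LP and 145 to 159 in early LP, against 140 to 159 in HPC, with Cd8a at 0 in all libraries of early LP and HPC, Cd3g in early LP and Cd3e in HPC. No gene of the other lists was at 0 throughout a group. Genes of a list did not all move alike (edgeR adjusted p under 0.05). Of the 6 progenitor markers 5 were lower in median LP, and 5 were lower and 1 higher in early LP. In median LP 5 erythroid genes were lower and 1 higher of 6 tested. There 3 dendritic cell genes were lower and 1 higher of 4, and 1 B cell gene was lower and 1 higher of 2. Of 2 T and NK cell genes tested 2 were lower in median LP and 1 in early LP. The part of these markers in the results was not tested.

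Libraries within a group also differed. HPC 3 had the highest CPM of the 3 HPC libraries for 76 of the 77 core genes. In the same library, 721 other genes with transcripts up to 1000 bases lay at a median of 0.21 above their HPC mean on the log2 scale. Median LP 1 was highest of its group for 72 core genes and early LP 3 for 60. Several counts, medians and calls that changed without HPC 3 are given both ways. Most fold changes, the subunit medians and the mean shares of the libraries are given with HPC 3 only.

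Messenger RNA for ribosomal proteins took a smaller part of the libraries in both leukemic groups. Summed over the 85 genes it was 6.22, 5.63 and 5.60% of the estimated counts in median LP, 5.59, 6.10 and 6.21% in early LP, and 8.50, 8.36 and 11.0% in HPC. The means were 5.82 ± 0.348% in median LP and 5.97 ± 0.329% in early LP, against 9.29 ± 1.5% in HPC (SD, n = 3 each). Every LP library lay below every HPC library, and the leukemic groups overlapped. Per transcript length, in FPKM (fragments per kilobase of transcript and mega fragments), the genes made up 17.2 ± 0.795% of the total in median LP and 17.5 ± 0.75% in early LP, against 27.5 ± 2.15% in HPC.

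**Figure D1:**
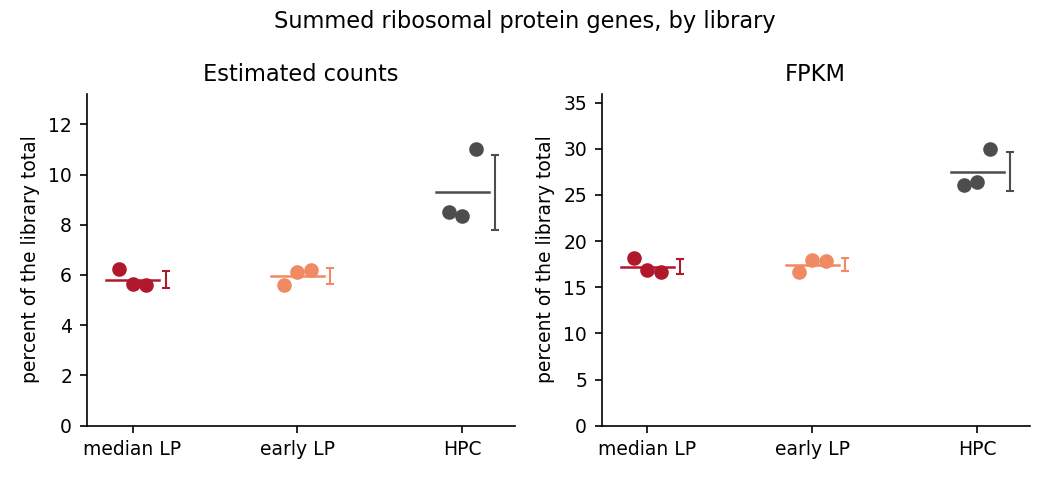
Summed level of the 85 ribosomal protein genes as a percent of all estimated counts (left) and of all FPKM (right); points are libraries, lines group means and bars 1 SD (n = 3 each). The 6 LP libraries lie between 5.59 and 6.22% of the counts and the 3 HPC libraries between 8.36 and 11.0%.

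Single genes were tested with edgeR's quasi-likelihood test on counts, fitted over 12837 genes, and called where the adjusted p (Benjamini-Hochberg) was under 0.05. Of the 85 genes 83 passed the filter on low counts, while Rpl39l and Rps4y2 did not. In median LP against HPC 66 of the 83 fell and 3 rose, where 37.7% of all genes tested fell and 36% rose. In early LP against HPC 63 fell and 3 rose, where 37.9% of all genes tested fell and 35.3% rose. Both comparisons use the same HPC libraries. The median log2 fold change of the 83 was -0.56 in median LP and -0.51 in early LP, where that of all genes tested was -0.04 in each. Without HPC 3 the counts were 61 lower and 6 higher in median LP and 53 lower and 7 higher in early LP, with medians of -0.40 and -0.33. The shares and medians of all genes above are from the fit of all 9 libraries. Those without HPC 3 are not given here.

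The values did not overlap between the groups, with LP below, for 65 of the 83 genes in median LP against HPC (39% of all genes tested) and for 57 in early LP against HPC (38.4%). The size of the change was alike across most core proteins. The middle 50% of the 77 core log2 fold changes ran from -0.72 to -0.46 in median LP and from -0.66 to -0.41 in early LP.

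**Figure D2:**
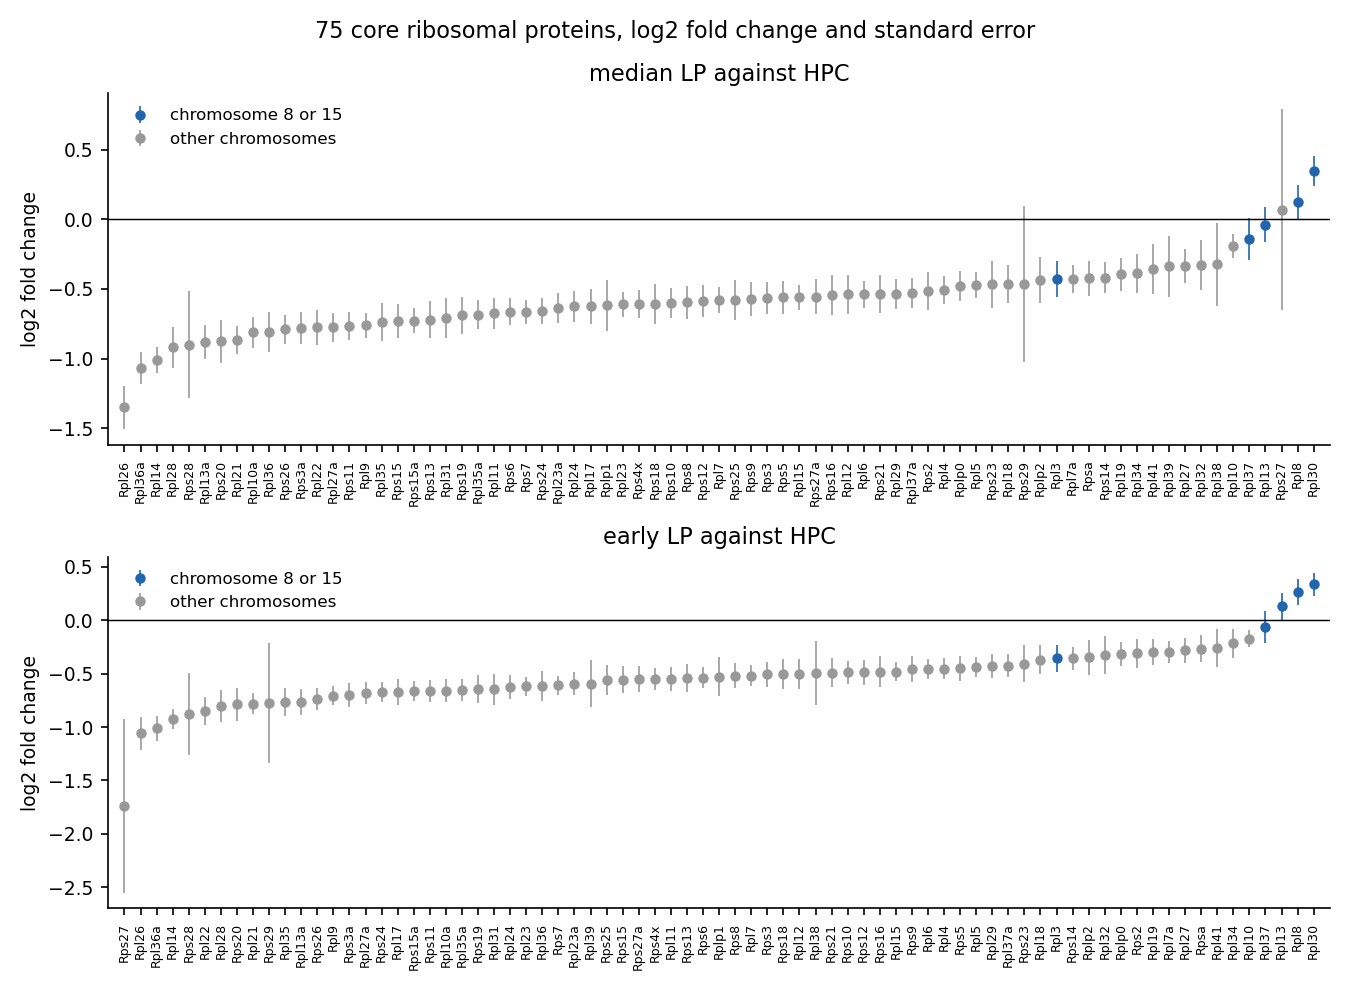
Log2 fold change (vertical axis) of 75 of the 77 core ribosomal protein genes, ranked, in median LP against HPC (upper) and early LP against HPC (lower); bars are 1 standard error from edgeR. Of the 5 genes shown from chromosome 8 or 15 (blue), 4 stand at the upper end in both comparisons; Rpl3 lies among the others.

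In the large subunit 36 of 46 proteins fell in median LP and 35 in early LP, and Rpl30 rose in both. In the small subunit 28 of 31 fell in median LP and 26 in early LP, and none rose. The median log2 fold change was -0.54 for the large and -0.60 for the small subunit in median LP, and -0.50 and -0.55 in early LP. With FPKM in place of counts the number that fell in early LP was 49 of 85, against 63 in the count test. The share of all genes that fell in the FPKM fit is not given here.

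The genes of the P stalk, the flexible arm of the large subunit that recruits the elongation factors, were lower. Rplp0, the base protein of the stalk, had 2669, 2391 and 2396 CPM in median LP and 2538, 2949 and 2860 in early LP, against 3291, 3056 and 4045 in HPC, so that all LP libraries lay below all HPC libraries. Its log2 fold change was -0.48 ± 0.11 (SE) in median LP, with an edgeR adjusted p of 0.0019, and -0.32 ± 0.11 in early LP, with an adjusted p of 0.022. Rpl12 and Rplp1 also fell in both leukemic groups. In early LP the call of Rplp0 was lost without early LP 1 (edgeR adjusted p = 0.091) or HPC 3 (0.062), and that of Rplp1 without early LP 1 (0.079), early LP 2 (0.052) or HPC 3 (0.052). Rplp2 fell in median LP (log2 fold change -0.44, edgeR adjusted p = 0.029) but missed the threshold in early LP (-0.35, adjusted p = 0.072). The call of Rplp2 in median LP was lost without median LP 2 (edgeR adjusted p = 0.089), median LP 3 (0.068) or HPC 3 (0.12), while in early LP it was made without early LP 3 (0.049) or HPC 2 (0.015).

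Rpl5 and Rpl11 bind 5S ribosomal RNA and, when free of the ribosome, the p53 ligase Mdm2. Rpl11 had 731, 651 and 651 CPM in median LP and 712, 718 and 788 in early LP, against 993, 958 and 1300 in HPC. Rpl5 had 1581, 1443 and 1429 CPM in median LP and 1459, 1513 and 1578 in early LP, against 1904, 1905 and 2363 in HPC. Neither gene had an LP library that reached the HPC range. Their log2 fold changes in median LP were -0.68 ± 0.11 for Rpl11 and -0.47 ± 0.09 for Rpl5.

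Rpl4, Rpl17 and Rpl39 line the exit tunnel. Rpl4 fell by 0.51 ± 0.10 on the log2 scale in median LP and by 0.45 ± 0.10 in early LP, and Rpl17 by 0.63 ± 0.12 and by 0.67 ± 0.12. Rpl39, one of the shortest proteins of the ribosome, had 434, 357 and 382 CPM in median LP and 309, 238 and 435 in early LP, against 434, 386 and 662 in HPC. These groups overlapped, and the edgeR adjusted p was 0.18 in median LP and 0.029 in early LP. The call of Rpl39 in early LP was lost without early LP 1 (edgeR adjusted p = 0.082), early LP 2 (0.13) or HPC 3 (0.15).

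Of 18 genes linked to Diamond-Blackfan anemia in people, 15 fell in median LP and 15 in early LP, where 64 and 61 of all 77 core proteins and 37.7 and 37.9% of all genes tested fell. The 3 not called in either were Rps27 counted alone, Rps28 and Rps29. The Rps27 locus, summed with the entry Gm9846, fell by 1.09 on the log2 scale in median LP and by 1.08 in early LP. Rpl27 was close to the threshold, and its call was lost without median LP 2, median LP 3 or HPC 3 in median LP and without any 1 library other than HPC 1, HPC 2 and early LP 3 in early LP (edgeR adjusted p = 0.057 to 0.19). The call of Rpl18 in early LP was lost without early LP 1 (0.11), early LP 2 (0.067) or HPC 3 (0.10). Rps19, the gene found mutated most often in that disease, had 386, 375 and 371 CPM in median LP and 375, 390 and 403 in early LP, against 509, 541 and 777 in HPC. No LP library reached the HPC range, and the log2 fold change was -0.69 ± 0.13 in median LP and -0.65 ± 0.13 in early LP. Rps14, whose loss is tied to the anemia of human 5q deletion syndrome, fell by 0.42 ± 0.11 on the log2 scale in median LP and by 0.36 ± 0.11 in early LP. Rps6, the protein phosphorylated by S6 kinase, fell by 0.66 ± 0.10 and by 0.54 ± 0.10.

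Among the genes called lower, each counted alone, Rpl26, Rpl36a and Rpl14 had the largest fold changes in both leukemic groups. The entry Rpl26 held only 6.42% of the CPM of its locus in median LP, 7.37% in early LP and 9.34% in HPC. Summed with the entry Gm15772, that locus fell less, by 0.81 on the log2 scale in median LP and by 0.72 in early LP. The summed Rps27 locus, not part of this ranking, fell by 1.09 and by 1.08. Rpl14, a surface protein of the large subunit, had 788, 692 and 665 CPM in median LP and 749, 748 and 780 in early LP, against 1329, 1354 and 1643 in HPC. Its log2 fold change was -1.01 ± 0.09 in median LP (edgeR adjusted p = 1.25e-06) and -0.93 ± 0.09 in early LP (adjusted p = 2.72e-06), and no LP library came near the HPC range. Rps20, of the small subunit head, had 475, 422 and 412 CPM in median LP and 447, 430 and 515 in early LP, against 679, 670 and 1053 in HPC. Rpl28 and Rpl13a, of the large subunit, fell by 0.92 ± 0.15 and 0.88 ± 0.12 on the log2 scale in median LP. Rpl21 had a log2 fold change of -0.87 in median LP and -0.78 in early LP, and Rpl22 one of -0.78 in median LP and -0.85 in early LP.

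Rpl36a is encoded on chromosome X and has a paralog on chromosome 12, Rpl36al, that makes a near-identical protein. Rpl36a had 1287, 1112 and 1033 FPKM in median LP and 1246, 1275 and 1219 in early LP, against 2377, 2289 and 2865 in HPC. Rpl36al had 941, 835 and 846 FPKM in median LP and 892, 995 and 935 in early LP, against 797, 803 and 950 in HPC. Rpl36a was lower in every LP library, while the ranges of Rpl36al overlapped. On counts the log2 fold change of Rpl36a was -1.07 ± 0.11 in median LP (edgeR adjusted p = 4.21e-06) and -1.01 ± 0.11 in early LP (adjusted p = 6.77e-06). That of Rpl36al was 0.11 ± 0.09 in median LP (adjusted p = 0.31) and 0.15 ± 0.09 in early LP (adjusted p = 0.15). Rpl36al made up 43.4 ± 1.46% of the summed FPKM of the pair in median LP and 43.0 ± 1.11% in early LP, against 25.3 ± 0.558% in HPC (SD, n = 3 each). Without HPC 3, Rpl36al was called higher, with a log2 fold change of 0.23 (edgeR adjusted p = 0.0078) in median LP and 0.27 (adjusted p = 0.0026) in early LP.

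**Figure D3:**
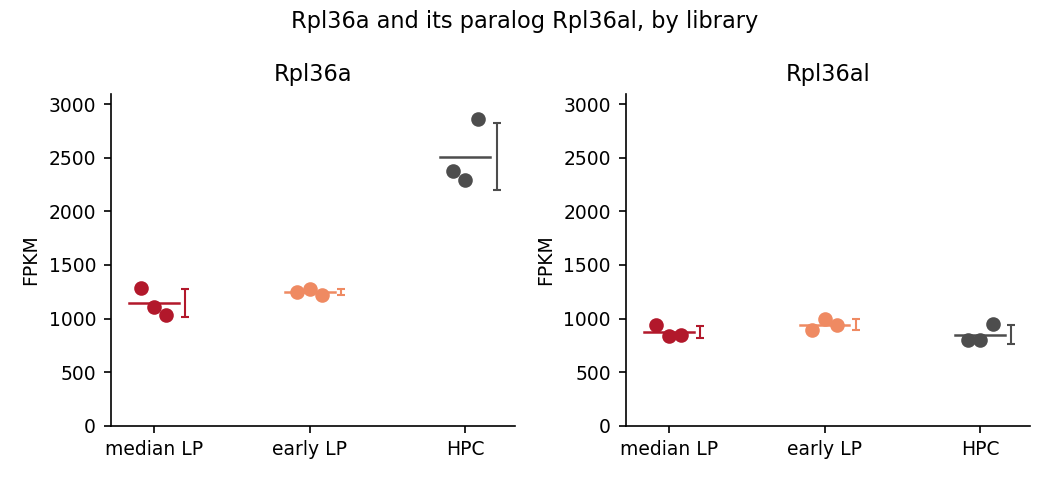
FPKM of Rpl36a (left) and its paralog Rpl36al (right) in each library; points are libraries, lines group means and bars 1 SD (n = 3 each). Rpl36a lies between 1033 and 1287 FPKM in the 6 LP libraries and between 2289 and 2865 in HPC, while Rpl36al lies between 797 and 995 in all 9.

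Among the other paralogs, Rpl22l1 fell along with Rpl22, by 0.48 ± 0.16 on the log2 scale in median LP (edgeR adjusted p = 0.017) and by 0.58 ± 0.16 in early LP (adjusted p = 0.0062), but its groups overlapped and the call in median LP was lost without median LP 3 (adjusted p = 0.051) or HPC 3 (0.074). It made up 80.4 ± 1.21% of the FPKM of Rpl22 and Rpl22l1 in median LP and 80.7 ± 3.64% in early LP, against 76.2 ± 3.90% in HPC. Rpl7l1, a large-subunit assembly factor related to Rpl7, fell by 0.17 ± 0.07 on the log2 scale in median LP (edgeR adjusted p = 0.030) and by 0.18 ± 0.07 in early LP (adjusted p = 0.025). Both calls of Rpl7l1 were lost without HPC 2 or HPC 3, that in median LP also without any 1 of its own libraries and that in early LP without early LP 2 or early LP 3, with edgeR adjusted p-values of 0.051 to 0.097. Rps27l, a p53 target in human and mouse cells, had 107, 97.4 and 96.0 CPM in median LP and 92.0, 81.9 and 107 in early LP, against 93.4, 89.3 and 114 in HPC, and was not called.

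Rpl3l, the form of Rpl3 known from striated muscle, was at 0.732, 0.740 and 0.604 CPM in median LP and 0.564, 0.761 and 0.668 in early LP, and at 0 in every HPC library. Against a floor of 3 fragments over the HPC group, which covers counting error only, it was at least 18.2-fold higher in median LP and at least 17.8-fold higher in early LP. Its edgeR adjusted p was 8.77e-06 in median LP and 1.08e-05 in early LP. Rpl3l passed the filter on low counts only through the LP libraries, and it is among the 3 genes counted as rising in each comparison. The level stayed far below that of Rpl3, and Rpl3l gave 0.0623% of the pair's FPKM in median LP and 0.0528% in early LP. Rps19bp1 rose by 0.30 ± 0.10 on the log2 scale in median LP (edgeR adjusted p = 0.014) and by 0.26 ± 0.10 in early LP (adjusted p = 0.027). Its call in median LP was lost without median LP 1 (edgeR adjusted p = 0.054), and that in early LP without early LP 2, early LP 3, HPC 1 or HPC 2 (adjusted p = 0.070 to 0.079). Rps4y2 had 0.354, 0.478 and 1.06 CPM in HPC and at most 0.0513 CPM in any LP library, and Rpl39l stayed at or below 0.176 CPM in all 9.

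Among the highest levels per length were those of Rps12, Rpl39, Rps21 and Rpl41, and the lowest were those of Rps19bp1, Rpl34, Rpl3l, Rps4y2 and Rpl39l. Rps12 had 4124, 3357 and 3379 FPKM in median LP and 3696, 4299 and 4145 in early LP, against 5357, 5170 and 6567 in HPC. Next in order was Rpl39 at 2940 ± 240 FPKM in median LP and 2608 ± 342 in early LP, against 3760 ± 743 in HPC (SD, n = 3 each). Neither gene had an LP library in the HPC range of FPKM. Rpl39, Rps21 and Rpl41 differed from one another in HPC by less than the SD of 1 of the pair.

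A difference between transcripts appeared in Rps24, a small-subunit protein whose 3 listed transcripts differ in 2 short exons before the last one. The lengths listed, 837, 857 and 875 bases, differ by exactly those exons of GENCODE, which have 20 bases (chr14:24495430-24495449, mm10, plus strand) and 18 bases (chr14:24494052-24494069, plus strand). The matched GENCODE models differ elsewhere too. Their last exon has 1185 bases in the model with neither short exon and 71 in the others. Exon 1 has 29 bases in the model with both short exons and 41 in the others. Where the short exons are included the reading frame ends earlier. The last coding bases are shown because they are where the 3 proteins differ; each line begins 12 bases before the end of exon 4, and capitals mark the stop codon.
neither exon: gctggcaaaaagccaaaggagTAG
20-base exon: gctggcaaaaagTGA
18-base and 20-base exons: gctggcaaaaagaaaTGA

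The transcript with only the 20-base exon had 4.20, 4.86 and 3.27 CPM in median LP and 3.91, 4.76 and 4.38 in early LP, against 78.8, 91.0 and 126 in HPC. It made up 0.449 ± 0.0821% of Rps24 in median LP and 0.482 ± 0.0683% in early LP, against 6.77 ± 0.961% in HPC (SD, n = 3 each). In a fit over 16378 transcripts, of which 30.9% fell in median LP and 31.1% in early LP, its log2 fold change was -4.58 ± 0.22 in median LP (edgeR adjusted p = 3.66e-07) and -4.50 ± 0.22 in early LP (adjusted p = 4.08e-07). The transcript with both exons had 0.289, 0.179 and 0.341 CPM in median LP and 0.190, 0.257 and 0 in early LP, against 12.1, 16.1 and 24.7 in HPC. Its log2 fold change was -5.99 ± 0.61 in median LP and -6.91 ± 0.66 in early LP, the second with 1 library at 0. The transcript with neither exon, 99.5% of Rps24 in both leukemic groups and 92.0% in HPC, fell by 0.55 ± 0.09 on the log2 scale in median LP and by 0.56 ± 0.09 in early LP. The split between these transcripts is the estimate of the authors' program, since they share nearly all of their sequence. Progenitor, erythroid, megakaryocyte, dendritic cell, basophil and B cell markers, whose ranges are given above, separated the same groups of libraries, and their part in the difference was not tested. Rps24 was picked out after its values were seen.

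**Figure D4:**
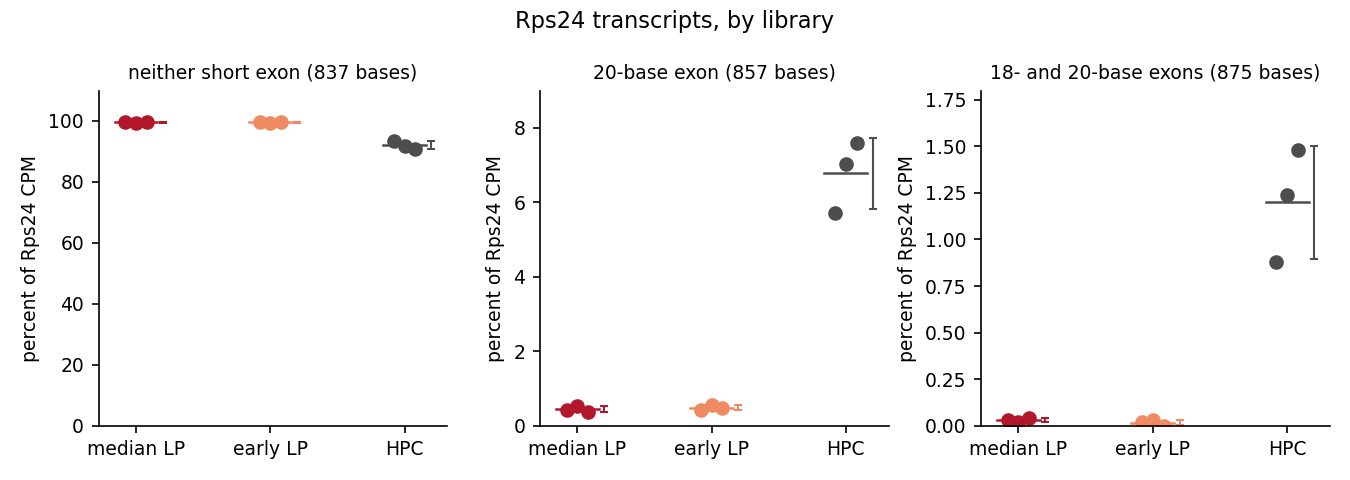
Each Rps24 transcript as a percent of the summed CPM of Rps24 in a library, from left to right with neither, 1 or both of the short exons; points are libraries, lines group means and bars 1 SD (n = 3 each), and the vertical scales differ. The transcript with the 20-base exon stays at or below 0.550% in the LP libraries and lies between 5.71 and 7.58% in HPC.

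Among the other members with several transcripts, Rpl31 had 97.1 ± 0.271% of its CPM in the main transcript in median LP and 96.9 ± 0.154% in early LP, against 95.9 ± 0.730% in HPC. Its 2 minor transcripts fell by 1.13 ± 0.14 and 1.147 ± 0.12 on the log2 scale in median LP, and the main transcript by 0.70 ± 0.17. The 3 transcripts of Rpl35a each fell in both leukemic groups. The main coding transcript of Rps27 held 84.0% of the CPM of Rps27 in median LP and 25.2% in early LP, against 55.3% in HPC, but it was at 0 in 2 early LP libraries and in HPC 1, and neither listed transcript was called. Both transcripts of Rpl3l were at 0 in HPC.

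Most core genes on chromosomes 8 and 15 were not called. They number 6, among them Rpl13 on chromosome 8 and Rpl3, Rpl8, Rpl30 and Rpl37 on chromosome 15. Of these 6 only Rpl3 fell, Rpl30 rose, and their median log2 fold change was -0.06 in median LP and 0.09 in early LP. Of the 71 core genes on other chromosomes, 63 fell in median LP and 60 in early LP, none rose, and the medians were -0.60 and -0.55. Genes that are not members had medians that differed by chromosome. Their median log2 fold change in median LP was 0.52 for 704 genes on chromosome 8 and 0.52 for 493 on chromosome 15, against -0.08 for 11557 on the other chromosomes. In early LP it was 0.53, 0.55 and -0.08. The part of the chromosome in the members' values was not tested, nor was the difference between these sets of genes.

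Rpl8, which sits near the peptidyl transferase center, had 1741, 1505 and 1474 CPM in median LP and 1545, 1812 and 1849 in early LP, against 1297, 1291 and 1741 in HPC. Rpl13 had 1465, 1294 and 1279 CPM in median LP and 1346, 1616 and 1579 in early LP, against 1230, 1231 and 1692 in HPC. In both genes HPC 3 lay within or above the LP range, while the other two HPC libraries lay below it. Without HPC 3, Rpl8 was called higher in median LP (log2 fold change 0.28, edgeR adjusted p = 0.019) and in early LP (0.42, adjusted p = 0.0018), and Rpl13 in early LP (0.30, adjusted p = 0.010). Of the 6 core genes on chromosomes 8 and 15, 1 fell and 2 rose in median LP without HPC 3, with a median log2 fold change of 0.12, and 0 fell and 4 rose in early LP, with a median of 0.28. Without it, 60 of the 71 core genes on other chromosomes fell in median LP and 52 in early LP. The share of all genes that fell without HPC 3 is not given here.

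Rpl30, Rpl26, Rpl34 and Rps27 share their locus with another entry of the table, which holds most of the counts. Of the summed CPM at the locus, Rpl30 held 6.25% in median LP, 6.47% in early LP and 5.49% in HPC, and the entry Gm12191 the rest. Rpl30 alone had 50.3, 54.5 and 48.6 CPM in median LP and 51.3, 50.05 and 51.1 in early LP, against 34.1, 38.3 and 48.4 in HPC, without overlap. Its log2 fold change was 0.34 ± 0.11 in median LP (edgeR adjusted p = 0.012) and 0.33 ± 0.11 in early LP (adjusted p = 0.014). The summed locus was not called, at 0.16 ± 0.11 in median LP (adjusted p = 0.20) and 0.10 ± 0.11 in early LP (adjusted p = 0.42).

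Rpl26, a protein near the tunnel exit, fell by 1.35 ± 0.15 on the log2 scale in median LP and by 1.06 ± 0.15 in early LP when counted alone. Summed with Gm15772 the locus fell by 0.81 ± 0.09 in median LP (edgeR adjusted p = 5.70e-06) and by 0.72 ± 0.09 in early LP (adjusted p = 1.64e-05). Rps27 counted alone had 7.72, 7.14 and 17.9 CPM in median LP and 1.60, 6.15 and 1.53 in early LP, against 1.58, 5.86 and 23.5 in HPC, and was not called. Summed with Gm9846 the Rps27 locus had 267, 243 and 231 CPM in median LP and 266, 221 and 259 in early LP, against 503, 487 and 588 in HPC. That sum fell by 1.09 ± 0.10 on the log2 scale in median LP (edgeR adjusted p = 8.16e-07) and by 1.08 ± 0.10 in early LP (adjusted p = 9.04e-07). The call of Rpl34 alone in median LP (edgeR adjusted p = 0.024) was lost without median LP 3 (0.091), HPC 1 (0.067) or HPC 2 (0.091). The Rpl34 locus, summed with Rpl34-ps1, fell by 0.44 ± 0.13 in median LP (adjusted p = 0.0095) and by 0.35 ± 0.13 in early LP (adjusted p = 0.032). Ribosomal protein genes also have many processed copies elsewhere in the genome, and how the authors' program shared reads with those was not given in the sources used here.

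The shortest transcripts varied most between libraries of a group. For the 10 core genes up to 450 bases, the highest library was a median of 1.23 times the lowest in median LP, 1.59 times in early LP and 1.74 times in HPC. For the 67 longer ones these ratios were 1.14, 1.13 and 1.38. Rps29, a zinc-binding protein of the small subunit, had 193, 149 and 214 CPM in median LP and 90.6, 75.4 and 283 in early LP, against 173, 96.6 and 498 in HPC, and its groups overlapped. It was not called, nor were Rps28, Rps27, Rpl38 and Rpl41 of this set in either comparison. Some of these calls turned on 1 library. Rps29 was called lower in early LP without early LP 3 (edgeR adjusted p = 0.015), Rps28 in both comparisons without early LP 3, HPC 1 or HPC 2 (0.0058 to 0.043), and Rpl41 in both without HPC 2 (0.018 in median LP and 0.049 in early LP). Rps27 counted alone was called higher in median LP without HPC 3 (log2 fold change 1.54, edgeR adjusted p = 0.046) and lower in early LP without early LP 2 (-2.71, 0.033) or HPC 1 (-2.23, 0.011). Rpl10, which completes the large subunit, was not called at a longer length either, with 1566, 1535 and 1519 CPM in median LP and 1581, 1542 and 1561 in early LP, against 1633, 1651 and 1994 in HPC. Rpl32 and Rpl37 were likewise not called in either comparison, and Rps2 and Rpsa fell in median LP and missed the threshold in early LP (edgeR adjusted p = 0.055 and 0.074), with no call between the leukemic groups.

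**Figure D5:**
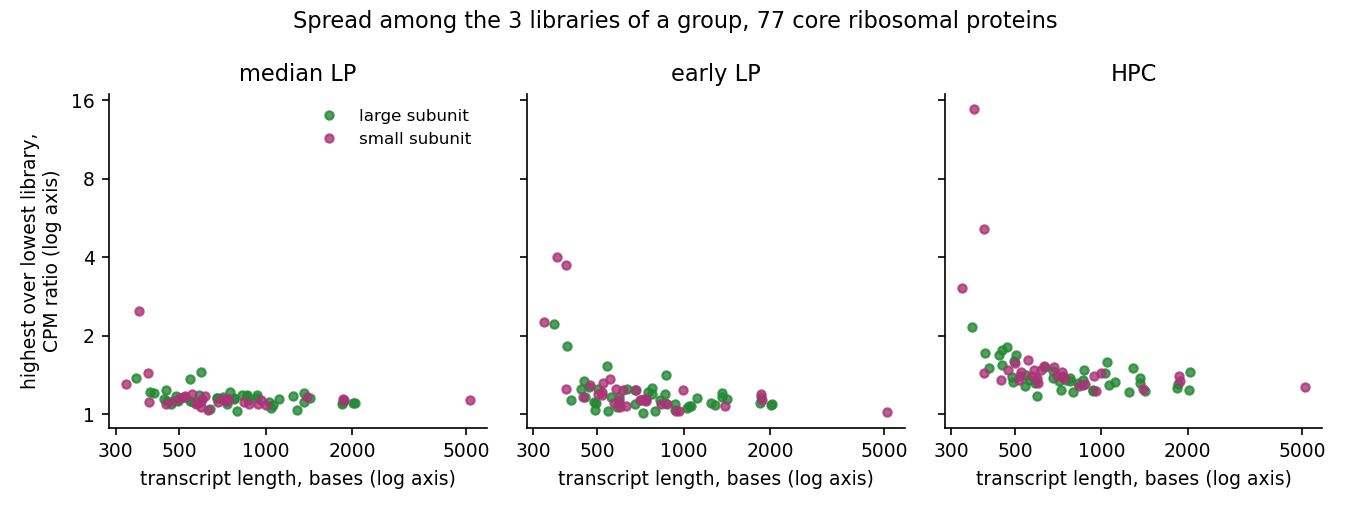
Ratio of the highest to the lowest library of a group in CPM (vertical, log axis) against transcript length in bases (horizontal, log axis) for the 77 core genes; each point is 1 gene, green for the large and purple for the small subunit. The highest ratio of each group, up to 14.9 for Rps27 in HPC, belongs to a transcript up to 450 bases. Rps27 is counted alone here, and its locus summed with Gm9846 had 503, 487 and 588 CPM in HPC.

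Between the 2 leukemic groups no ribosomal protein gene was called. In median LP against early LP 0 of 83 fell and 0 rose, where 0.997% of all genes tested fell and 1.48% rose. DESeq2 and limma on FPKM also called 0. At an unadjusted p under 0.05 edgeR gave 1 of the 83 genes and 16.5% of all genes tested. DESeq2 gave 0 members and 12.5% of all genes in its fit, and limma 0 members and 13.2%. The 1 gene was Rps27 counted alone, higher in median LP. Its locus summed with Gm9846 had a log2 fold change of -0.01 ± 0.10. The median log2 fold change of the 83 was -0.06, where that of all genes tested was 0, and 68 of the 83 values were below 0. For Rplp0 the log2 fold change between them was -0.16 ± 0.11, and for Rps24 0.01 ± 0.09.

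Other proteins of the ribosome and of translation were read from lists chosen with earlier results of these data known. Fau encodes a ribosomal protein joined to a ubiquitin-like domain, and Gnb2l1 encodes the scaffold Rack1 on the small subunit. Fau fell by 0.63 ± 0.15 on the log2 scale in median LP (edgeR adjusted p = 0.0021) and by 0.48 ± 0.15 in early LP (adjusted p = 0.011), and Gnb2l1 fell by 0.37 ± 0.12 and by 0.29 ± 0.12. Their list held 3 genes, of which 2 fell and 0 rose in each leukemic group. Among all genes tested 37.7% fell in median LP and 37.9% in early LP.

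The counts of these lists stand against 37.7% lower and 36% higher among all genes tested in median LP, and 37.9% lower and 35.3% higher in early LP. Of 39 initiation factors 23 fell and 3 rose in median LP, and 22 fell and 3 rose in early LP. The clearest were the poly(A)-binding protein Pabpc4, the helicase Eif4a2 and the cap-binding protein Eif4e3, with log2 fold changes of -1.05 ± 0.07, -0.80 ± 0.07 and -1.21 ± 0.08 in median LP. Of 17 elongation and release factors 12 fell and 3 rose in median LP, and 12 fell and 4 rose in early LP. The release factor Gspt2 rose to 39.7 ± 1.75 CPM in median LP and 35.0 ± 1.30 in early LP, against 11.3 ± 0.448 in HPC. Eef2k, the kinase that slows elongation, fell by 1.07 ± 0.06 on the log2 scale in median LP and by 0.93 ± 0.06 in early LP.

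Of 23 other mRNAs known to carry the TOP motif 14 fell and 3 rose in median LP, and 13 fell and 3 rose in early LP. Nap1l1, a histone chaperone, fell by 0.90 ± 0.08 in median LP and by 0.91 ± 0.08 in early LP, while the filament protein Vim rose by 1.38 ± 0.10 and by 1.65 ± 0.10. Of 21 genes that control the translation of such mRNAs 9 fell and 4 rose in median LP, and 10 fell and 4 rose in early LP, a share lower near that of all genes, with Mknk2, a kinase of Eif4e, at -1.35 ± 0.08 and -1.33 ± 0.08. Of 37 genes of late subunit assembly and export 26 fell and 3 rose in both, with the assembly factors Rrp12 at -0.88 ± 0.06 and Mrto4 at -1.02 ± 0.08 in median LP. Of 16 genes that rescue stalled ribosomes 6 fell and 3 rose in median LP, and 6 fell and 4 rose in early LP, a share lower like that of all genes. Pelo, which splits stalled ribosomes, rose by 0.72 ± 0.08 in median LP and by 0.81 ± 0.08 in early LP. The median log2 fold changes in median LP were -0.28 for initiation, -0.39 for elongation and release, -0.38 for other TOP mRNAs, -0.17 for their control, -0.32 for assembly and -0.13 for rescue, where that of the 77 core proteins was -0.58.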

How the data were processed

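RNA was extracted with Trizol and sequenced on an Illumina HiSeq after TruSeq library preparation, per the labels' protocols; the submitters' processing notes name TopHat2 2.0.6 and mm10. The authors deposited FPKM and estimated counts per RefSeq transcript and library; with quantifier, annotation release and strand setting not given in the sources used here. Estimated counts were summed per gene and rounded to whole numbers. The steps of low estimated counts, in genes with 1 listed transcript, gave a depth of 20.6 to 28.4 M fragments per library. Of those counts 89.7 to 91.5% were whole to within 0.05 of a step.

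All 9 libraries were fitted together in edgeR 4.0.16 (R 4.3.3; TMM, filterByExpr, quasi-likelihood F test, two-sided, Benjamini-Hochberg over 12837 genes). The step was tested on simulated data. DESeq2 1.42.0, limma 3.58.1 on log2(FPKM + 1) and other filters, offsets and omissions were alternatives. The rule for named genes took the 8 called members with the largest fold change in each direction at 5 CPM or more, the 5 highest and 5 lowest by FPKM, all names that are not core proteins, and members of set roles. The genes and lists were chosen with earlier results of these data known. Rps14, Rps6, Rpl8, Rpl13, Rpl10 and some other members fall outside that rule and were named after their values were seen. Of the paralog pairs, Rpl10l and Rps4l were not listed under these names, so those pairs have no shares here. Some other genes are not reported here.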

Additional observations from a re-analysis of the deposited data

How the results depend on the processing

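The direction of the median fold change of the ribosomal protein genes was the same under every alternative tried. The number called lower stayed within 1.5 times in all 3 comparisons. Offsets for transcript length or GC moved the median of all genes from -0.04 to -0.17 and -0.18 in median LP. The number called higher in median LP was 1 with FPKM at a pseudocount of 1, at 0.1 and with a filter at 1 FPKM, and 1 among core proteins only. In early LP it was 5 with length offsets, 1 with GC offsets and 1 among core proteins only. Leaving out 1 library gave 2 to 6 higher in median LP and 2 to 7 in early LP, and 61 to 68 and 53 to 69 lower. The shares of all genes called under these alternatives and omissions are not given here, so their counts cannot be set against them. As a share of FPKM the members were at 17.2% in median LP, 17.5% in early LP and 27.5% in HPC. On counts the paralogs held these shares of their pairs in median LP, early LP and HPC: Rpl7l1 11.1, 10.6 and 8.62%, Rpl22l1 31.7, 31.3 and 27.3%, and Rpl36al 47.5, 47.2 and 28.6%; Rpl3l held 0.0439% in median LP and 0.0399% in early LP, and Rpl39l 0.0229% in early LP and 0.0119% in HPC. Rps27 changed sign in median LP when entries of its locus were summed, at -1.09, a sum chosen after seeing the data.

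The labels do not say whether replicate numbers pair the samples. The correlation of deviations was -0.213 to 0.115 for equal numbers and -0.218 to 0.218 for others. These are deviations from means of 3 libraries, so they cannot exclude that equal numbers share a batch. With the replicate block 66 members were lower and 3 higher in median LP, and 65 and 3 in early LP, with the shares of all genes in that fit not given here. Rps4y2, Rpl39l and Rpl3l rest on few fragments, and 3 libraries a group limit the precision.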
